A study of Mus musculus with 12 samples.

Results

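B cell identity and receptor genes were examined in RNA from splenic CD8 T cell preparations, in which B cell transcripts were abundant. The 8 genes were Cd79a, Cd79b, Cd22, Ms4a1, Fcer2a, Cr2, Pax5 and Blnk, of 20778 genes in the count table, and all 8 were among the 12122 genes that passed the filter on low counts. They were chosen by name as B cell receptor chains, coreceptors and lineage factors, and were selected on measured values of these same libraries. The reasons were that B cell transcripts were abundant and that Cd79a, Cd79b and Fcer2a were lower than Naïve in some or all treated groups. For these 8 genes the differences from Naïve are therefore a description with no test, while differences between treatments were tested. Those tests use the same treated libraries that entered the selection of Cd79a, Cd79b and Fcer2a. The p-values of these genes between treatments are thus not free of the selection. CD8 positive cells were isolated with magnetic beads from spleens of C57BL/6 mice, given as 6 weeks old in the labels and as older in the study's methods, so the age is uncertain. All 4 groups were held in culture for 6 hours, namely Naïve with no treatment, αCD3 with an antibody to CD3, which carries the signal of the T cell receptor, IFNγ with interferon gamma at 70 ng/ml, and LPS with bacterial lipopolysaccharide. Doses of the antibody and of LPS read 1 µg/ml in the treatment labels, but the unit is mg/ml elsewhere in the labels and is therefore uncertain. Each group had 3 libraries, and nothing states whether they came from separate mice, so p-values measure the spread between libraries, which may be technical.

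The B cell receptor is a membrane immunoglobulin that binds antigen and a pair of signalling chains, CD79a and CD79b, that carry the signal into the cell. Coreceptors set the strength of that signal. CD21, encoded by Cr2, binds complement fragments and raises it, while CD22 lowers it by recruiting phosphatases. CD23, encoded by Fcer2a, is the low-affinity receptor for IgE, CD20, encoded by Ms4a1, is a membrane protein of mature B cells, Pax5 is the transcription factor that holds B cell identity, and Blnk is the adaptor that links the receptor's kinases to downstream enzymes. In bulk libraries such as these, fewer B cells and less RNA per B cell cannot be told apart.

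Promoter letters are shown for Cd79a and Fcer2a, the members with the largest differences between treatments among those with a promoter window. RefSeq windows (GRCm38.p6, 250 bases before to 50 bases after a start) matched 6 of the 8 members, and Cd79b and Ms4a1 had none. Each stretch below ends before the first annotated exon of its gene and is written 5′ to 3′ on the gene's strand, at chr7:24897247-24897380 on the plus strand for Cd79a and at chr8:3694176-3694424 on the minus strand for Fcer2a. Capitals mark an E-box, which the Cd79a stretch holds and the Fcer2a stretch does not.
Cd79a: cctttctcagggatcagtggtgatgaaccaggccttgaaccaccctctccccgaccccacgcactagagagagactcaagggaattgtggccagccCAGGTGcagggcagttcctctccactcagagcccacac
Fcer2a: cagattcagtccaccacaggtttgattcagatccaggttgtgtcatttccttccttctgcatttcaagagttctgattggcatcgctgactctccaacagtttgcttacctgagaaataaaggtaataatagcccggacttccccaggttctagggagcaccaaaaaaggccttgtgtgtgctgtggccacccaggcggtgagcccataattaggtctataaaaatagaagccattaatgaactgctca
Searched on both strands were a motif of Ebf1 (CCCNNGGG), the octamer (ATTTGCAT), the E-box of E2A proteins (CAGGTG) and the GAS element of IFNγ signalling (TTCNNNGAA), and these did not overlap each other. The E-box lay in the windows of Cd79a, Cd22, Cr2 and Blnk and in 1 of the 3 windows of Fcer2a, which is not the one printed, and 20.2% of all 32851 windows of 300 bases held it. The Ebf1 motif lay in the Cd22 window (13.7% of all windows) and the octamer in the Blnk window (1.74%), while GAS letters lay in none of the members' windows (8.3% of all windows). Only these exact letters were counted, with N as any base, so a window without a match may still hold a site with other letters. In the Cd79a window the E-box stood at position -154, counted from the RefSeq start.

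Depth was 10.2 M to 27.6 M counts per library, highest in αCD3 replicate 1 and lowest in LPS replicate 1, and a member's count in a library ran from 60 to 20457. The T cell markers were present as labelled. All 11 T cell genes had counts in all 12 libraries, and their summed level (in CPM, which are counts relative to the TMM-scaled size of the library) was 1872 to 2098 in Naïve, 2549 to 2725 in αCD3, 1889 to 2092 in IFNγ and 1506 to 1727 in LPS. The 8 B cell genes had counts in all 12 libraries too, with summed levels of 3123 to 3401 CPM in Naïve, 2198 to 2505 in αCD3, 2569 to 2611 in IFNγ and 1736 to 2760 in LPS (replicate 1 at 2760, the others at 1736 and 1803). These sums are not per length and are not shares of cells. A set of 13 other genes restricted to B cells, used below as a reference, summed to 1831 to 1955 CPM in Naïve, 1341 to 1508 in αCD3, 1575 to 1665 in IFNγ and 1565 to 1853 in LPS. Some markers of other cells differed by replicate number. The summed level of 6 erythroid genes was 337 to 570 CPM in the replicate 1 libraries and 1296 to 4114 in the others, and that of 11 myeloid genes was lowest in replicate 1 of every group (763 to 1403 against 1431 to 2364). LPS replicate 1 stood apart from the other 2 LPS libraries in several members.

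To see which members made up the B cell signal, levels were set per kilobase of transcript. In Naïve, Cd79a (620 ± 46.4 CPM per kilobase, SD, n = 3) and Cd79b (610 ± 36.0) came first, with libraries that overlapped. Below them came Fcer2a at 368 ± 31.8, Pax5 at 303 ± 11.9 and Ms4a1 at 174 ± 30.5, each apart from its neighbours in the order. Cd22 at 50.2 ± 11.3 and Blnk at 46.3 ± 2.21 overlapped, and Cr2 was lowest at 12 ± 9.58. The signalling chains thus headed the order in Naïve, and they did so in αCD3 (439 ± 48.9 and 383 ± 63.8, overlapping) and in IFNγ (592 ± 49.6 and 417 ± 12.6, not overlapping). In IFNγ, Fcer2a was in place 5 with 83 ± 18.7 CPM per kilobase, below Ms4a1 at 184 ± 32.6 and with no overlap. In αCD3, Pax5 (238 ± 6.13), Fcer2a (204 ± 72.6) and Ms4a1 (149 ± 17.4) came after the signalling chains, and neighbours among these genes overlapped. The order in LPS began with Pax5 (396 ± 85.2) and Fcer2a (363 ± 224). Cd79a (202 ± 51.0), Cd79b (166 ± 84.0) and Ms4a1 (155 ± 9.12) followed, and neighbours from Pax5 to Ms4a1 overlapped. Without LPS replicate 1, an alternative chosen after seeing the data, Pax5 was at 347, Fcer2a at 235, Cd79a at 173, Ms4a1 at 151 and Cd79b at 118 CPM per kilobase (means of 2 libraries), and no neighbours overlapped. These levels assume reads along whole transcripts and the mean annotated length. With the longest transcript Pax5, whose annotated transcripts differ widely in length, was in place 5 in every group, and in LPS Cd79a came first.

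**Figure D1:**
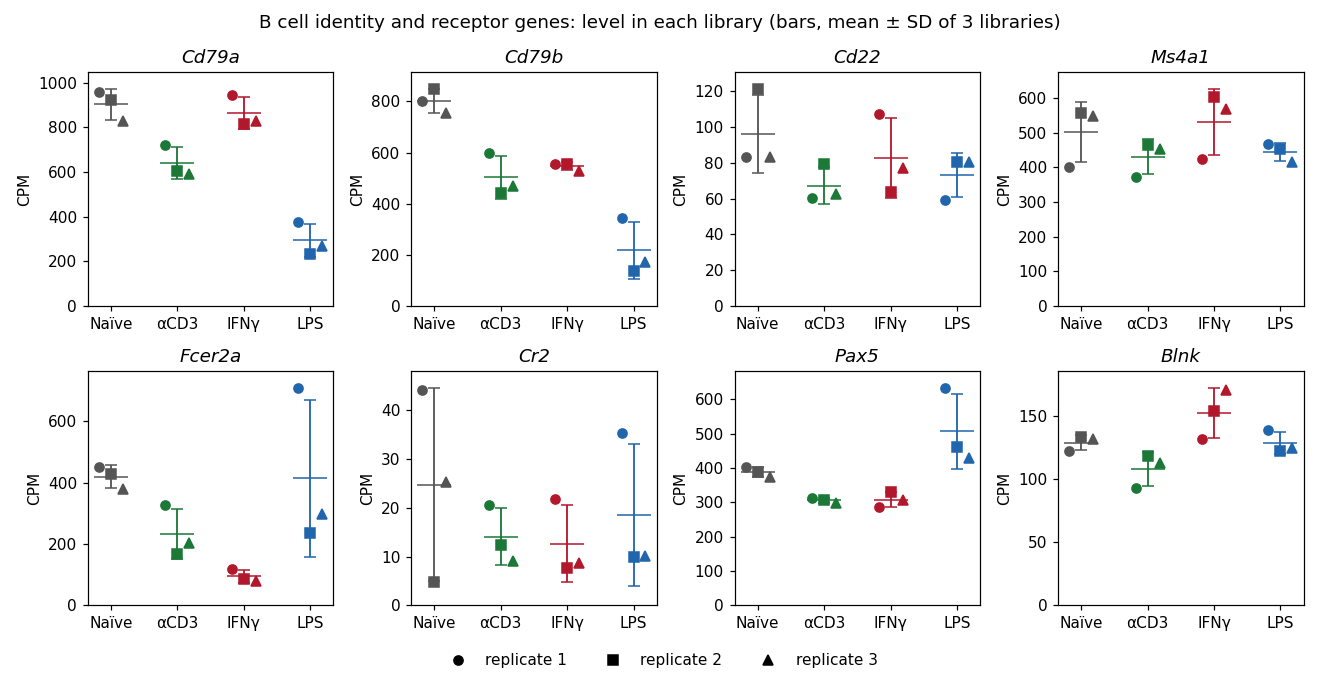
Level of each of the 8 genes in each of the 12 libraries, in CPM on TMM-scaled libraries (linear axis from 0, a scale of its own in each panel). Points are libraries with the replicate number as the symbol, and bars are the mean ± SD of 3 libraries. Cd79a and Cd79b are lowest in LPS (at most 377 and 343 CPM), Fcer2a is lowest in IFNγ (at most 119 CPM), and Pax5 is highest in LPS (at least 428 CPM).

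Cd79a and Cd79b encode the signalling chains of the receptor. Cd79a (ENSMUSG00000003379.7, chr7:24897381-24902197 in GRCm38, plus strand, protein-coding, 1 annotated transcript) was at 958, 923 and 827 CPM in Naïve replicates 1 to 3, 721, 606 and 591 in αCD3, 945, 813 and 829 in IFNγ, and 377, 234 and 271 in LPS. IFNγ libraries overlapped the Naïve libraries, αCD3 libraries lay below both, and LPS libraries below all the others. The log2 fold change from Naïve was -0.07 ± 0.15 (SE) in IFNγ, -0.50 ± 0.15 in αCD3 and -1.62 ± 0.16 in LPS. Of its annotated 31-base words 87.8% were found in no other gene, and the rest were shared with the predicted gene Gm32220, which the count table does not list.

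Between treatments, Cd79a was higher in IFNγ than in LPS by 1.55 ± 0.16 on the log2 scale (SE, edgeR quasi-likelihood test, adjusted p = 2.43e-05) and higher in αCD3 than in LPS by 1.12 ± 0.16 (edgeR, adjusted p = 0.000748). Each of these was called in all 17 alternative fits, and without LPS replicate 1 they were 1.77 and 1.34. The smaller difference of IFNγ over αCD3 was 0.43 ± 0.15 (edgeR, adjusted p = 0.048), with no overlap of libraries. That call was not stable, as it was made in 6 of 17 alternative fits (adjusted p from 0.00407 to 0.149). It was lost without any 1 of the Naïve or IFNγ libraries, αCD3 replicate 2 or 3, or LPS replicate 3, with values of 0.35 to 0.47 in those fits.

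Cd79b (ENSMUSG00000040592.11, chr11:106311341-106314762, minus strand, 2 transcripts) was at 800, 848 and 754 CPM in Naïve, 599, 442 and 468 in αCD3, 556, 557 and 528 in IFNγ, and 343, 137 and 173 in LPS. All 9 treated libraries lay below the 3 Naïve libraries, IFNγ and αCD3 overlapped, and LPS lay below both. From Naïve, Cd79b differed by -0.55 ± 0.27 in IFNγ, -0.67 ± 0.27 in αCD3 and -1.88 ± 0.28 in LPS (log2 fold change ± SE), the last of these being -2.37 without LPS replicate 1. Cd79b was higher in IFNγ than in LPS by 1.33 ± 0.28 (edgeR, adjusted p = 0.00311), which was 1.82 without LPS replicate 1 and was called in all 17 alternative fits. It was higher in αCD3 than in LPS by 1.21 ± 0.27 (edgeR, adjusted p = 0.0121), or by 1.70 without LPS replicate 1. The call was lost in 2 of 17 alternative fits, without LPS replicate 3 (1.07) and with those 2 groups alone (1.23), over a range of adjusted p from 4.08e-05 to 0.0704. For IFNγ against αCD3 the difference was 0.12 with a 95% interval of -0.41 to 0.65 (edgeR, adjusted p = 0.759).

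The chains were next compared within each library, where the ratio of their CPM does not depend on how the library was scaled. Cd79a divided by Cd79b was 1.2, 1.09 and 1.1 in Naïve, 1.21, 1.37 and 1.26 in αCD3, 1.7, 1.46 and 1.57 in IFNγ, and 1.1, 1.71 and 1.57 in LPS. All 3 IFNγ libraries and all 3 αCD3 libraries were above the 3 Naïve libraries, αCD3 replicate 1 only narrowly so, and LPS replicate 1 alone among treated libraries lay within the Naïve range. On the log2 scale the ratio was 0.17 ± 0.08 (SD, n = 3) in Naïve, 0.35 ± 0.09 in αCD3, 0.65 ± 0.11 in IFNγ and 0.52 ± 0.34 in LPS. The ratio is not corrected for transcript length, which is the same in every library, and the members were selected on both chains, so no test was made.

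**Figure D2:**
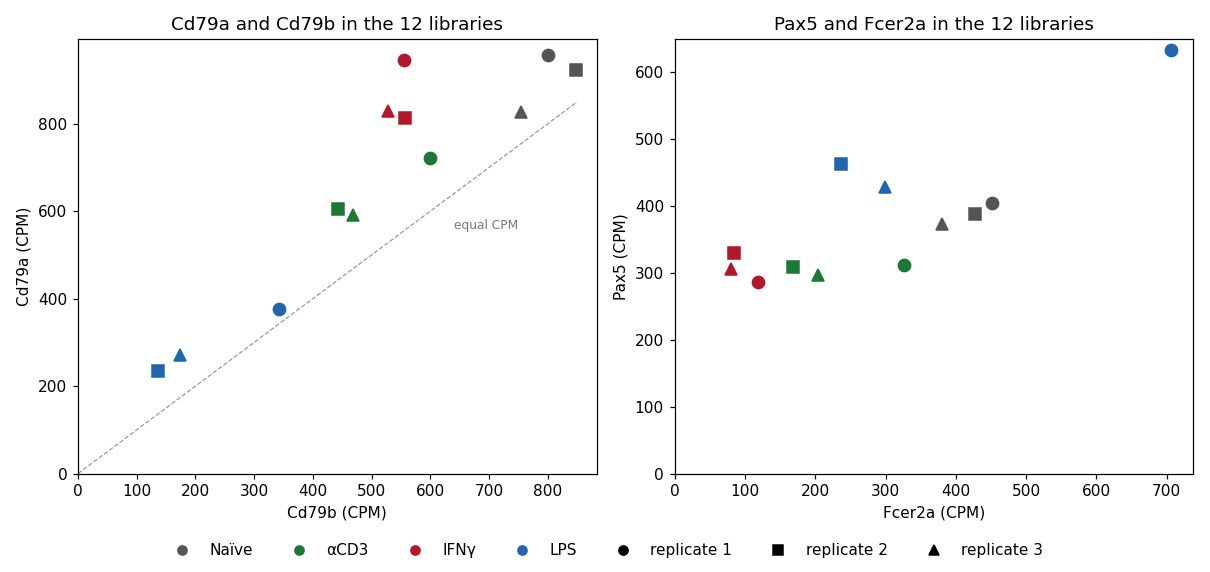
Pairs of members in the 12 libraries, in CPM on linear axes from 0, with colour for the group and symbol for the replicate number. Left, Cd79a against Cd79b with a dashed line of equal CPM, where the IFNγ libraries lie farther above the line (ratios 1.46 to 1.7) than the Naïve libraries (1.09 to 1.2). Right, Pax5 against Fcer2a, where LPS replicate 1 holds the highest level of both (632 and 707 CPM) and the IFNγ libraries the lowest Fcer2a.

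Cd22 and Ms4a1, a receptor that dampens the signal and a membrane protein of mature B cells, were called in none of the comparisons between treatments. Cd22 (ENSMUSG00000030577.14, chr7:30865402-30880342, minus strand, 16 transcripts) was at 83.2, 121 and 83.3 CPM in Naïve, 60.4, 79.1 and 62.3 in αCD3, 107, 63.5 and 77.3 in IFNγ, and 59.2, 80.4 and 80.5 in LPS. All αCD3 and LPS libraries (at most 79.1 and 80.5 CPM) lay below the 3 Naïve libraries, IFNγ overlapped Naïve, and the 3 treated groups overlapped each other. Its log2 fold change from Naïve was -0.21, -0.51 and -0.38 in IFNγ, αCD3 and LPS, each ± 0.22 (SE). Leaving out 1 library gave -0.45 to -0.01, -0.64 to -0.31 and -0.47 to -0.18 in the same order. The lowest of these came without IFNγ replicate 1, αCD3 replicate 2 and Naïve replicate 1, and the highest without Naïve replicate 2 in all 3 groups. An exon of Gm29439 overlaps Cd22 on the opposite strand, and strand use in counting is not stated, so reads of those genes may not be separable.

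Ms4a1 (ENSMUSG00000024673.9, chr19:11249675-11266241, minus strand, 3 transcripts) was at 401, 557 and 549 CPM in Naïve, 373, 465 and 454 in αCD3, 424, 602 and 568 in IFNγ, and 467, 454 and 417 in LPS. Every treated group overlapped Naïve, and replicate 1 was the lowest library in each group but LPS. Within replicate numbers 1 to 3 the log2 ratio to Naïve was 0.08, 0.11 and 0.05 in IFNγ and -0.10, -0.26 and -0.27 in αCD3. In LPS it was 0.22, -0.29 and -0.40. From Naïve it differed by 0.08, -0.22 and -0.17 in IFNγ, αCD3 and LPS, each ± 0.15 (log2 fold change ± SE). With 1 library left out these ran from -0.06 to 0.21, -0.36 to -0.13 and -0.31 to -0.09, and with library size alone the LPS value was -0.38. The lowest came without Naïve replicate 1 in all 3 groups, and the highest without IFNγ replicate 1, αCD3 replicate 1 and Naïve replicate 2. Between treatments the differences were -0.13 to 0.30 for Cd22 and -0.05 to 0.30 for Ms4a1. The 95% intervals reached from -0.56 to 0.73 for Cd22 and from -0.35 to 0.60 for Ms4a1, and values within those intervals are not excluded. Without IFNγ replicate 1, Ms4a1 was called higher in IFNγ than in αCD3 (0.44). Within replicate numbers that difference was 0.18, 0.37 and 0.32, and it was not called with the block (edgeR, adjusted p = 0.0505).

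Fcer2a and Cr2 encode CD23 and CD21, receptors that mark follicular and marginal zone B cells. Fcer2a (ENSMUSG00000005540.10, chr8:3681737-3694175, minus strand, 8 transcripts) was at 451, 428 and 380 CPM in Naïve, 326, 168 and 204 in αCD3, 119, 84.6 and 80.5 in IFNγ, and 707, 237 and 299 in LPS. IFNγ libraries were the 3 lowest of the 12, αCD3 libraries lay below Naïve, and LPS libraries lay on either side of Naïve. The log2 fold change from Naïve was -2.15 ± 0.39 (SE) in IFNγ, -0.85 ± 0.38 in αCD3 and -0.02 ± 0.38 in LPS. Without LPS replicate 1 the LPS value was -0.65, and without αCD3 replicate 1 the αCD3 value was -1.17.

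Between treatments, Fcer2a was lower in IFNγ than in LPS (log2 fold change -2.13 ± 0.39, SE, edgeR, adjusted p = 0.00161). Without LPS replicate 1 this was -1.50, and it was called in all 17 alternative fits. Fcer2a was also lower in IFNγ than in αCD3 (-1.30 ± 0.39, edgeR, adjusted p = 0.0229), a call made in 14 of 17 alternative fits (adjusted p from 0.00255 to 0.0796). It was lost without αCD3 replicate 1 (-0.97), IFNγ replicate 2 (-1.22) or IFNγ replicate 3 (-1.19). For αCD3 against LPS the difference was -0.83 with a 95% interval of -1.57 to -0.09 (edgeR, adjusted p = 0.156), and -0.20 without LPS replicate 1. Within replicate numbers 1 to 3 it was -1.12, -0.50 and -0.55, and it was not called with the block (edgeR, adjusted p = 0.052).

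Cr2 (ENSMUSG00000026616.15, chr1:195136811-195176716, minus strand, 12 transcripts) was the least abundant member and the most variable. It was at 44.2, 4.69 and 25.2 CPM in Naïve, 20.5, 12.4 and 9.18 in αCD3, 21.7, 7.70 and 8.57 in IFNγ, and 35.3, 9.92 and 10.2 in LPS. Replicate 1 was the highest library of each group, and all groups overlapped. From Naïve it differed by -0.97, -0.81 and -0.45 in IFNγ, αCD3 and LPS, with SE of 0.74 to 0.75. These values rest on single libraries. Without Naïve replicate 1 they were -0.25, -0.09 and 0.28, the IFNγ value was -1.63 without IFNγ replicate 1, the αCD3 value was -1.29 without Naïve replicate 2, and the LPS value was -1.31 without LPS replicate 1. Between treatments it differed by -0.16 to -0.52 and was not called, with 95% intervals that reached from -2.02 to 1.33. The sign of each of these differences turned on leaving out a library, and LPS replicate 1 turned both that involve LPS (0.34 for IFNγ and 0.50 for αCD3 against LPS). IFNγ against αCD3 turned without αCD3 replicate 1 (0.24), IFNγ replicate 2 (0.10) or IFNγ replicate 3 (0.05). The replicate 1 libraries also held the highest Cd79a and Fcer2a of their groups and the lowest erythroid and myeloid sums given above, and the part of those cells in these levels was not tested.

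Pax5 is the lineage factor and Blnk the receptor's adaptor. Pax5 (ENSMUSG00000014030.15, chr4:44524757-44710487, minus strand, 20 transcripts) was at 404, 387 and 373 CPM in Naïve, 312, 308 and 297 in αCD3, 286, 330 and 306 in IFNγ, and 632, 462 and 428 in LPS. The 3 LPS libraries lay above all other libraries, and the αCD3 and IFNγ libraries lay below Naïve and overlapped. From Naïve, Pax5 differed by -0.34, -0.34 and 0.39 in IFNγ, αCD3 and LPS, each ± 0.12 (log2 fold change ± SE), and by 0.20 in LPS without LPS replicate 1. Pax5 was lower in IFNγ than in LPS (-0.72 ± 0.12, edgeR, adjusted p = 0.000836) and lower in αCD3 than in LPS (-0.73 ± 0.12, edgeR, adjusted p = 0.00224). Each was called in all 17 alternative fits, at -0.53 and -0.54 without LPS replicate 1. IFNγ and αCD3 differed by 0.01, with a 95% interval of -0.23 to 0.25 (edgeR, adjusted p = 0.967). Exons of Gm12462 and 5730488B01Rik overlap Pax5 on the opposite strand.

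Blnk (ENSMUSG00000061132.13, chr19:40928927-40994535, minus strand, 3 transcripts) was at 122, 133 and 132 CPM in Naïve, 92.7, 118 and 113 in αCD3, 132, 154 and 171 in IFNγ, and 139, 122 and 125 in LPS. IFNγ libraries were above αCD3 libraries with no overlap and overlapped both Naïve and LPS. Within replicate numbers the log2 ratio of IFNγ was 0.12, 0.22 and 0.38 to Naïve and -0.08, 0.33 and 0.46 to LPS. Its log2 fold change from Naïve was 0.25, -0.26 and 0.00 in IFNγ, αCD3 and LPS, each ± 0.11 (SE). Blnk was higher in IFNγ than in αCD3 by 0.50 ± 0.11 (edgeR, adjusted p = 0.0048), called in all 17 alternative fits. It was not called in IFNγ against LPS (0.24, 95% interval 0.03 to 0.46, edgeR, adjusted p = 0.104) unless IFNγ replicate 1 was left out (0.34) or libraries were scaled by size alone (0.31), nor in αCD3 against LPS (-0.26, 95% interval -0.48 to -0.04, edgeR, adjusted p = 0.133).

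**Figure D3:**
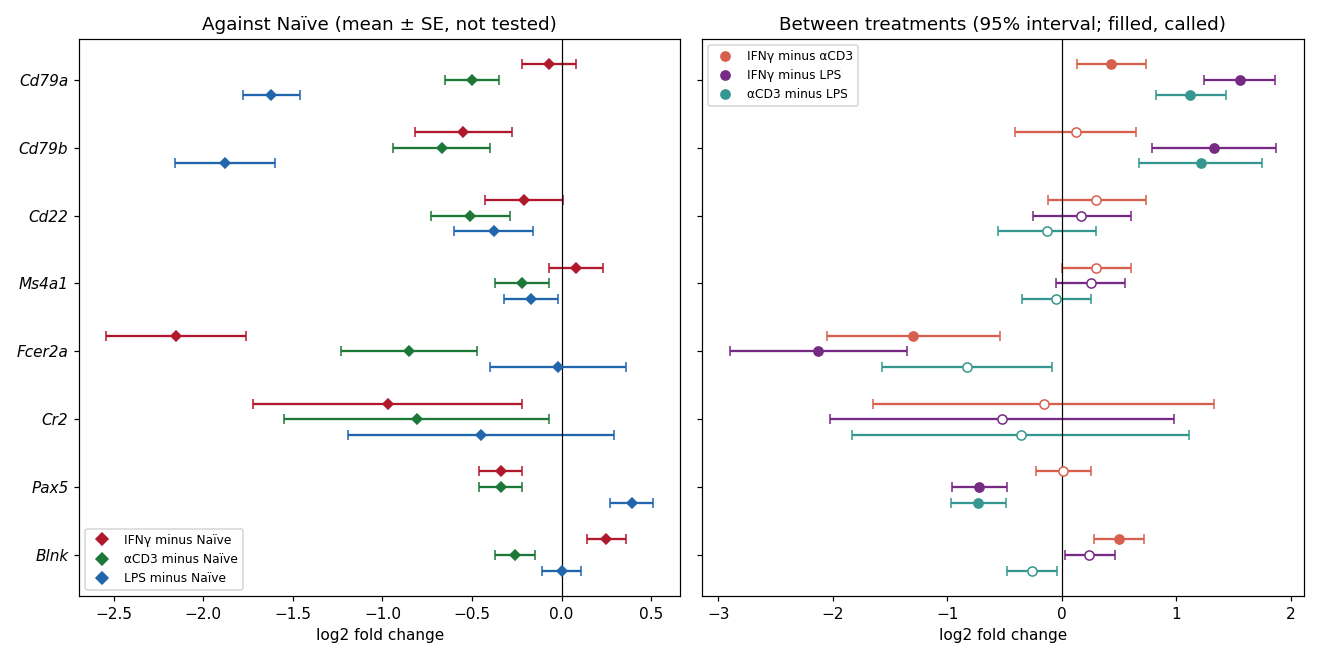
Log2 fold change of each member (horizontal axis) in the 6 comparisons. Left, each treatment minus Naïve with bars of 1 SE, not tested because the members were selected on these differences. Right, differences between treatments with 95% intervals, filled where the adjusted p was under 0.05 (edgeR), where Cd79a and Cd79b lie to the right of 0 against LPS (1.12 to 1.55) and Fcer2a and Pax5 to the left in IFNγ minus LPS (-2.13 and -0.72).

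Over the 8 members, 3 were called between IFNγ and αCD3 (Cd79a and Blnk higher in IFNγ, Fcer2a lower), where the share called over all tested genes was 37.2% (15.8% higher, 21.4% lower in IFNγ). The count fell to 1 without IFNγ replicate 2 or IFNγ replicate 3. Between IFNγ and LPS 4 were called, Cd79a and Cd79b higher and Fcer2a and Pax5 lower in IFNγ, beside 40.4% of all tested genes (18.0% higher, 22.4% lower). Between αCD3 and LPS 3 were called, Cd79a and Cd79b higher and Pax5 lower in αCD3, beside 19.4% (9.64% higher, 9.76% lower). The members' shares of calls lie near these backgrounds in the comparisons with IFNγ, and with 8 genes no count of this kind sets them apart. The median log2 fold change of the members was 0.21, 0.21 and -0.19 in the 3 comparisons, beside 0.03, 0.04 and -0.01 over all tested genes. The 3 comparisons share treated libraries and are not independent of each other, nor of the selection of Cd79a, Cd79b and Fcer2a.

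To describe the members apart from the amount of B cell RNA, each was divided by the summed CPM of the 13 reference genes (among them Blk, Bank1, Ebf1, Pou2af1, Cd72, Siglecg, Fcrla, Fcrl1, Tnfrsf13c, Ly6d, Ralgps2 and Vpreb3) in the same library. The log2 ratio of Cd79a was -1.06 ± 0.10 (SD, n = 3) in Naïve, -1.13 ± 0.06 in αCD3, -0.92 ± 0.10 in IFNγ and -2.54 ± 0.25 in LPS. On this scale the αCD3 libraries (-1.18 to -1.06) overlapped the Naïve libraries (-1.15 to -0.96), and LPS lay far below. Fcer2a stood at -2.17 ± 0.11 in Naïve, -2.64 ± 0.40 in αCD3, -4.13 ± 0.28 in IFNγ and -2.18 ± 0.71 in LPS, and the IFNγ libraries lay below all the others. Cd79b was at -1.23 ± 0.04, -1.48 ± 0.14, -1.58 ± 0.01 and -3.06 ± 0.58 in the same order of groups. Without LPS replicate 1, an alternative chosen after seeing the data, the LPS ratio was -2.66 for Cd79a, -3.37 for Cd79b, -2.58 for Fcer2a and -1.84 for Pax5. For Pax5 the ratio was -2.28 ± 0.07 in Naïve and -1.74 ± 0.17 in LPS, and for Blnk -3.87 ± 0.07 in Naïve and -3.43 ± 0.23 in IFNγ. Reference genes differed from Naïve in LPS as well, from -2.14 for Vpreb3 to 0.90 for Ly6d on the log2 scale. With Ebf1, Bank1 and Blk alone as the reference, the difference of LPS from Naïve was -1.10 for Cd79a, 0.91 for Pax5, 0.54 for Blnk, 0.38 for Ms4a1 and 0.16 for Cd22. That of αCD3 from Naïve turned from -0.07 to 0.08 for Cd79a, and was -0.10 for Cd79b and 0.24 for Pax5, and that of IFNγ from Naïve was -0.37 for Cd79b.

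**Figure D4:**
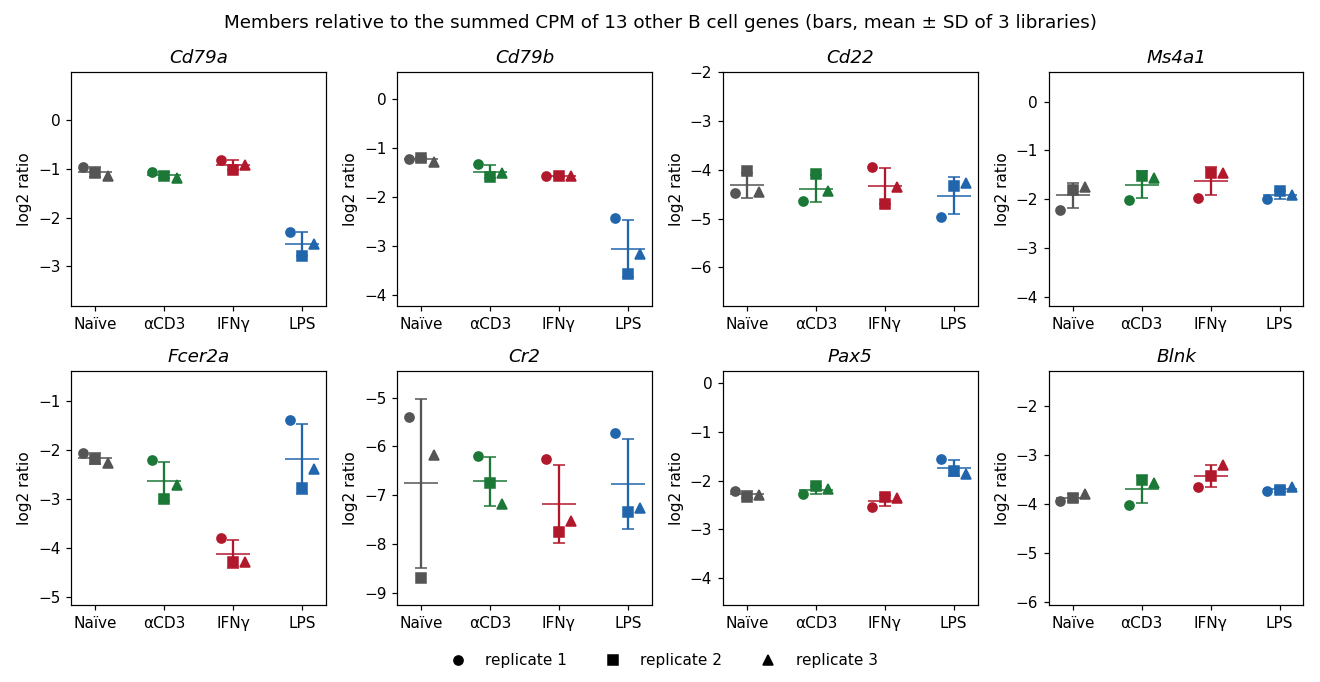
Log2 ratio of each member's CPM to the summed CPM of 13 other B cell genes in the same library (every vertical axis spans the same number of log2 units). Points are libraries, bars the mean ± SD of 3 libraries. The Cd79a ratio is -2.54 in LPS against -1.06 in Naïve, and the Fcer2a ratio is -4.13 in IFNγ against -2.17 in Naïve.

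To place the members among other genes of the B lineage, 6 lists with 64 genes were counted, of which 59 were in the table and all of those were tested. The 13 reference genes are among them. The other genes were not chosen as restricted to B cells. RNA of other cells in the preparation may be part of their levels, and this was not tested. Ighm, Ighd, Igkc, Iglc1 and Iglc2, the immunoglobulin chains themselves, were not analysed here. In IFNγ 7 of the 59 were higher than Naïve and 8 lower, beside 12.4% of all tested genes called (8.17% higher, 4.27% lower). With the replicate number as a block 13 were higher and 16 lower, 29 in place of 15, beside 24.9% of all tested genes (13.5% higher, 11.4% lower), and without Naïve replicate 3, IFNγ replicate 2 or IFNγ replicate 3 the count was 8, 7 and 9. In αCD3 3 were higher and 30 lower, beside 38.6% (22.9% higher, 15.7% lower), and the total of 33 was 18 without αCD3 replicate 2 and 21 without αCD3 replicate 3. With the block 8 were higher and 37 lower, beside 52.4% (28.1% higher, 24.2% lower). LPS had 15 B lineage genes higher and 27 lower, beside 49.3% (26.9% higher, 22.3% lower). Because the members were selected on the differences from Naïve, nothing about them is read from these counts.

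The other B lineage genes were counted between treatments as well. In IFNγ against αCD3 22 of 59 were higher and 2 lower (median log2 fold change 0.34), beside 15.8% and 21.4% of all tested genes. In IFNγ against LPS 20 were higher and 18 lower (median 0.18), beside 18.0% and 22.4%, and in αCD3 against LPS 14 were higher and 19 lower (median -0.17), beside 9.64% and 9.76%. By list, receptor signalling genes had 7 of 13 higher and 0 lower in IFNγ against αCD3, and 6 higher and 3 lower in IFNγ against LPS. Inhibitory receptors had 3 of 9 higher and 1 lower, then 3 higher and 3 lower. Transcription factors had 2 of 12 higher and 0 lower, then 3 and 3, and surface and survival receptors 6 of 14 higher and 1 lower, then 5 higher and 7 lower. Marginal zone genes had 2 of 6 higher and 0 lower, then 2 and 2, and plasma cell genes 2 of 5 higher and 0 lower, then 1 and 0. In αCD3 against LPS the higher and lower counts were 4 and 3 for signalling, 3 and 4 for inhibitory receptors, 3 and 3 for transcription factors, 3 and 7 for surface receptors, 0 and 1 for marginal zone genes and 1 and 1 for plasma cell genes. With the replicate number as a block more genes were called, 49.7% of all tested genes in IFNγ against αCD3 (23.7% higher, 25.9% lower), 52.7% in IFNγ against LPS (25.8% higher, 26.9% lower) and 34.7% in αCD3 against LPS (16.5% higher, 18.2% lower). The counts that the block moved by over 1.5 times were the lower genes of all 59 in IFNγ against αCD3 (4), the transcription factors lower in IFNγ than in αCD3 (2), higher in IFNγ than in LPS (6) and higher and lower in αCD3 than in LPS (5 and 5), the signalling genes lower in αCD3 than in LPS (5), and the plasma cell genes higher in IFNγ than in LPS (2) and higher and lower in αCD3 than in LPS (2 and 2).

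Markers of other cells were counted in the same comparisons, and their part in the B lineage values was not tested. In IFNγ against Naïve 2 of 11 myeloid genes were higher and 1 lower, 1 of 6 NK cell genes was higher, 2 of 8 dendritic cell genes were lower, and no T cell, CD4 T cell, neutrophil or erythroid gene was called, although the median log2 fold change of the 6 erythroid genes was 0.84. With the block 5 erythroid genes were higher, myeloid genes 3 higher and 4 lower, NK cell genes 2 higher, dendritic cell genes 3 lower and T cell genes 2 higher and 3 lower. In αCD3 against Naïve T cell genes were 6 of 11 higher and 1 lower, myeloid genes 1 higher and 6 lower, NK cell genes 1 higher, and 2 dendritic cell, 2 of 4 CD4 T cell and 1 of 6 neutrophil genes were lower. With the block the lower genes were 8 myeloid, 5 dendritic cell, 3 CD4 T cell, 4 neutrophil, 2 NK cell and 1 T cell genes, with 2 myeloid, 1 NK cell and 8 T cell genes higher. In LPS against Naïve 8 T cell, 4 myeloid, 3 CD4 T cell, 1 NK cell and 1 dendritic cell genes were lower, and 1 myeloid and 1 dendritic cell gene higher. With the block 3 erythroid, 3 myeloid, 2 NK cell and 1 dendritic cell genes were higher. The lower genes were then 8 T cell, 6 myeloid, 5 dendritic cell, 3 CD4 T cell, 2 neutrophil and 2 NK cell genes. Over all 12122 tested genes the block called 3762 higher and 3445 lower in LPS against Naïve.

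Between treatments, T cell genes were 1 higher and 7 lower in IFNγ against αCD3, 7 higher and 0 lower in IFNγ against LPS, and 9 higher and 1 lower in αCD3 against LPS. With the block they were 1 and 8, 8 and 0, and 9 and 1. In IFNγ against αCD3 the medians were 0.49 for myeloid, 0.57 for NK cell, 0.51 for neutrophil, 1.03 for erythroid, 0.20 for CD4 T cell and 0.01 for dendritic cell genes, with 1, 0, 1, 0, 2 and 0 genes called higher and 1 dendritic cell gene lower. With the block 6, 2, 3, 5, 2 and 2 were higher and 1 dendritic cell gene lower. In IFNγ against LPS the medians were 0.62, 0.41, 0.43, 0.37, 0.26 and 0.13 in the same order, with 3, 1, 0, 0, 1 and 1 genes higher, and 1 myeloid and 2 dendritic cell genes lower. With the block 6, 2, 3, 1, 2 and 2 were higher, and 1 myeloid, 2 NK cell and 2 dendritic cell genes lower. In αCD3 against LPS the medians were 0.41 for NK cell, -0.19 for neutrophil, -0.62 for erythroid, 0.26 for CD4 T cell and 0.02 for dendritic cell genes, and that of myeloid genes rounded to 0. There 1 NK cell, 1 CD4 T cell and 1 dendritic cell gene were higher, and 2 myeloid and 2 dendritic cell genes lower. With the block 2 myeloid, 3 NK cell, 2 CD4 T cell and 1 dendritic cell genes were higher, and 3 myeloid, 2 NK cell, 4 erythroid and 2 dendritic cell genes lower.

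Among receptor signalling genes, Lyn, a kinase that acts early after the receptor binds antigen, was at 250 ± 17.1 CPM in IFNγ (SD, n = 3), 161 ± 10.1 in αCD3 and 123 ± 13.1 in LPS. It was higher in IFNγ than in αCD3 (0.64) and than in LPS (1.02, both called). Syk, a kinase recruited by the CD79 chains, and the adaptor Pik3ap1 were called in none of the 3 comparisons between treatments, with differences of -0.40 to 0.33 and -0.57 to 0.37. Syk was called in IFNγ against αCD3 (higher) and in αCD3 against LPS (lower) with the block, with DESeq2 or without αCD3 replicate 1, and Pik3ap1 in αCD3 against LPS (lower) with the block.

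Of the inhibitory receptor list, the phosphatases Ptpn6 and Inpp5d were lower in LPS than in IFNγ (0.58 and 1.0 for IFNγ minus LPS) and than in αCD3 (0.84 and 0.95), while the receptors Cd72 and Fcgr2b were higher in LPS (-0.75 and -0.99 for IFNγ minus LPS, -1.0 and -1.32 for αCD3 minus LPS), all 8 called. The Cd72 calls were lost with the 2 groups alone, and that for IFNγ minus LPS also without IFNγ replicate 1 or IFNγ replicate 2. Transcription factors divided likewise. Pou2f2, which binds the octamer, was at 597 ± 93.9 CPM in LPS and 203 ± 11.8 in IFNγ (-1.55, called), and Ikzf3, an Ikaros family factor, was at 168 ± 11.9 in LPS and 288 ± 13.3 in IFNγ (0.78, called). Irf8 was at 1096 ± 91.8 CPM in IFNγ, 1094 ± 413 in LPS and 655 ± 255 in αCD3, and Pou2af1, the coactivator of octamer factors, at 325 ± 33.6, 320 ± 33.1 and 384 ± 38.8, and neither was called between treatments. Irf8 was called higher in IFNγ than in αCD3 with the block, with DESeq2 or without αCD3 replicate 2 or LPS replicate 1, and lower in αCD3 than in LPS with the block or without LPS replicate 1. Pou2af1 was called lower in IFNγ than in αCD3 with the block, and higher in αCD3 than in LPS with the block or library size alone.

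Of the surface and survival receptors, Cxcr5, the receptor that draws B cells to follicles, was at 418 ± 45.3 CPM in LPS, 257 ± 0.95 in IFNγ and 191 ± 20.3 in αCD3, and all 3 differences were called (-0.70 for IFNγ minus LPS, -1.13 for αCD3 minus LPS, 0.43 for IFNγ minus αCD3). Cd24a, Ly6d and Cd83 were also called lower in IFNγ and in αCD3 than in LPS (-0.49 to -1.17 for IFNγ, -0.67 to -0.99 for αCD3), the Cd24a call for IFNγ being lost without IFNγ replicate 1 or LPS replicate 2. Cd40 and Fcmr, named after their values were seen, went opposite ways. Cd40, a receptor for T cell help, was lower in IFNγ than in LPS (-1.66 ± 0.24, SE), and Fcmr, the IgM Fc receptor, was higher (2.13 ± 0.23), both called.

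Among marginal zone genes Mzb1 and Cd1d1, which presents lipids, were higher in IFNγ than in αCD3 (0.55 and 0.71) and than in LPS (0.75 and 0.83), all called. Dtx1 was called lower in IFNγ than in LPS (-0.51) and in αCD3 than in LPS (-0.59), the first lost without IFNγ replicate 1, IFNγ replicate 2 or LPS replicate 1 and the second without αCD3 replicate 1, αCD3 replicate 2 or LPS replicate 3. Cd9 was called in none of the comparisons between treatments, although in IFNγ against LPS it was called as higher with DESeq2, library size alone, the 2 groups alone or without Naïve replicate 1, and in IFNγ against αCD3 with the latter 2 settings. Of the plasma cell genes, Jchain, which joins immunoglobulin units, was at 954 ± 32.4 CPM in IFNγ, 605 ± 45.6 in αCD3 and 746 ± 23.1 in LPS, with all 3 differences called (0.66, 0.36 and -0.30 for IFNγ minus αCD3, IFNγ minus LPS and αCD3 minus LPS), the last lost with library size alone or the 2 groups alone. Xbp1 and Prdm1, factors of plasma cell differentiation, were called in none of these comparisons, though other settings called them. Xbp1 was called higher in αCD3 than in LPS with the block or library size alone. Prdm1 was called lower in αCD3 than in LPS with the block, with DESeq2 or without Naïve replicate 1, Naïve replicate 3 or LPS replicate 1, and higher in IFNγ than in αCD3 with the block or the 2 groups alone. Sdc1 was called higher in IFNγ than in αCD3 (0.73).

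**Figure D5:**
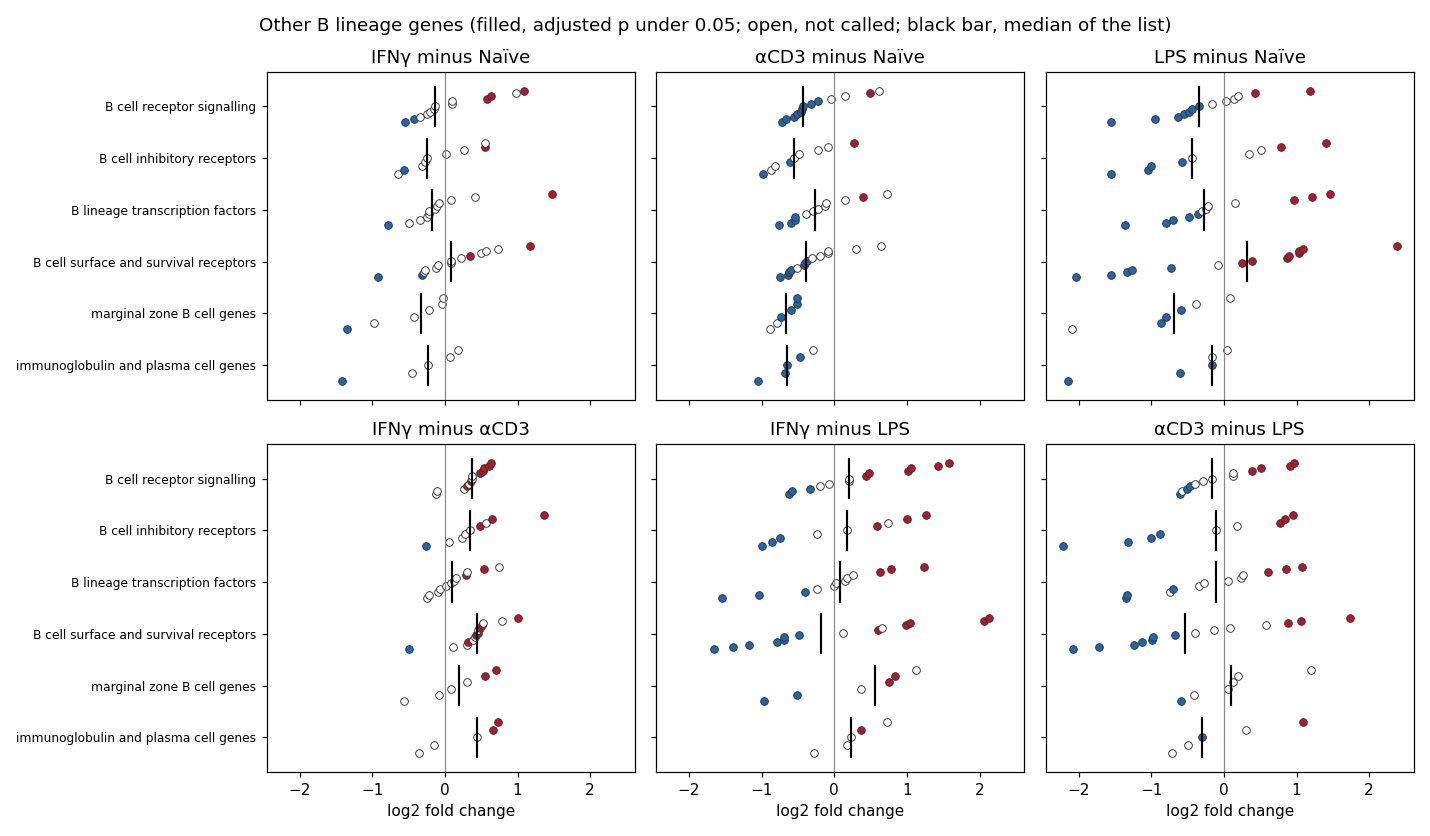
Log2 fold change (horizontal axis) of the 59 other B lineage genes by list in the 6 comparisons, 1 point per gene. Filled points had an adjusted p under 0.05 (edgeR), red higher and blue lower in the first group, and black bars are list medians. Points are spread to both sides in the comparisons with LPS (20 higher and 18 lower in IFNγ minus LPS) and lie mostly to the right in IFNγ minus αCD3 (22 higher, 2 lower).

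The members did not share 1 pattern. The Pearson correlation of a member with the mean profile of all 8, over 12 libraries and with each member part of that mean, ran from 0.264 for Pax5 to 0.65 for Cd79b. The genes outside all lists that lay nearest to that mean were Napepld (r = 0.926), Cacnb1 (0.905), Sh3bp1 (0.904), Ostf1 (0.901), Zfp40 (0.899) and Qpct (0.894), over the same 12 libraries, which share group and scaling. Sh3bp1 was at 94.4 ± 0.635 CPM in Naïve, 52.7 ± 3.50 in αCD3, 72.1 ± 1.62 in IFNγ and 58.2 ± 5.77 in LPS. By Spearman correlation 1 of these 6 was among the nearest 6.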

How the data were processed

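RNA was measured in 12 mRNA libraries, 3 in each of 4 groups, and groups were taken from the labels. Reads had been pseudo-aligned by the authors with Kallisto to mm10, and the deposited values are expected counts (estimated counts for each gene symbol and library, not scaled). The Kallisto version, annotation and strand setting are not given in the sources used here. Total counts were 10.2 M to 27.6 M per library, and 0 columns of per-sample values were left unused. Per the study's methods the authors used TMM and DESeq2 (1.24.0 in the submitters' processing notes).

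Here counts were rounded and tested with edgeR 4.0.16 in R 4.3.3 (quasi-likelihood F-test, robust, TMM, filterByExpr) in 1 fit of all libraries with group as the only term. Benjamini-Hochberg adjustment ran over 12122 genes, and called means an adjusted p under 0.05. The 95% intervals were made from the SE with a normal distribution and are approximate. They are not adjusted for the number of genes, so an interval can exclude no change where the gene was not called. The code was tested on simulated data. The members, lists and tests were chosen with earlier results of these data known. Named genes were the 8 members, the 4 of each list with the highest mean CPM, and the 6 genes nearest to the members' mean profile. A gene chosen by the rule is not reported here.

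Alternatives were library size alone, DESeq2 1.42.0, no count filter, the 2 groups alone, each library left out in turn and the replicate number as a block. Deviations from group means correlated at 0.117 to 0.401 in the 18 pairs of libraries with the same number. In the other 36 pairs they correlated at -0.354 to 0.102. The numbers were therefore taken to pair the libraries in the block alternative, while the main fit did not use them. The source of the pairing is not stated. Coordinates and transcript lengths came from GENCODE M21 (GRCm38, the build called mm10), promoters and motif shares from RefSeq (GRCm38.p6).

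Marker lists gave summed CPM in each library. For 4 CD4 T cell genes these were 66.9 to 122, for 8 dendritic cell genes 77.2 to 191, for 6 NK cell genes 97.6 to 288 and for 6 neutrophil genes 85.6 to 188 over the 12 libraries, and no gene of any marker list in the table was at 0 in any library.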

Additional observations from a re-analysis of the deposited data

How the results depend on the processing

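Of the 24 differences of members between treatments, DESeq2 and the replicate block kept the direction and the call of all 24. With library size alone, which moves the median of all genes against Naïve to -0.16 in IFNγ, -0.13 in αCD3 and -0.22 in LPS (from -0.02, -0.02 and -0.01), Ms4a1 in αCD3 against LPS turned to 0.05, Pax5 in IFNγ against αCD3 turned to -0.02, the Cd79a call in IFNγ against αCD3 was lost (0.40) and Blnk was called in IFNγ against LPS (0.31). Of the 24 differences from Naïve 6 moved by more than 1 SD with library size alone, to -0.20, -0.69 and -0.48 for Cd79a, Cd79b and Pax5 in IFNγ, to -0.46 for Pax5 in αCD3, and to -0.38 and -0.21 for Ms4a1 and Blnk in LPS. Without the count filter Pax5 in IFNγ against αCD3 turned to -0.01 and the same Cd79a call was lost (0.41). The cause of these changes was not tested. Counts of other B lineage genes called in IFNγ against Naïve were 15, and 29 with the replicate block and 23 with DESeq2. The block changed no other total by over 1.5 times, and the counts by direction or list that it moved by more stand beside those counts.

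With each library left out in turn, 9 of 288 member differences between treatments changed sign. They lay in Cr2 (-0.81 to 0.24 for IFNγ against αCD3, -1.16 to 0.34 for IFNγ against LPS, -0.76 to 0.50 for αCD3 against LPS), Cd22 (-0.06 to 0.33 for IFNγ against LPS), Ms4a1 (-0.11 to 0.04 for αCD3 against LPS) and Pax5 (-0.05 to 0.05 for IFNγ against αCD3), none of which was called. Members called ranged from 1 to 3 in IFNγ against αCD3, from 4 to 5 in IFNγ against LPS and from 2 to 3 in αCD3 against LPS. Other B lineage genes called ranged from 7 to 18 in IFNγ against Naïve and from 18 to 36 in αCD3 against Naïve.

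With 3 libraries a group and counts of 60 or more for every member, intervals rest on the spread among these libraries, which was widest for Cr2 and Fcer2a. Of the 24 log2 ratios to the reference, 9 moved by more than 1 SD with the smaller reference, and 13 of 32 places in the order by level changed with the longest transcript.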
